A study of Mus musculus with 16 samples.

Results

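Adipsin is the complement serine protease factor D, the product of the mouse gene *Cfd* (ENSMUSG00000061780.5), and its mRNA was followed here across gonadal white adipose tissue (gWAT) of 16 male mice. *Cfd* is 1 of 19373 genes listed in the expression table. It was selected on its very large fall on a high-fat diet in both genotypes, so its diet change is given as a description with no test, and its comparison between genotypes was tested. All mice were on the C57Bl6/J background and carried *Mboat7* alleles flanked by loxP sites. *Mboat7* flox/flox mice had no Cre and served as controls, whereas *Mboat7* ASKO mice also carried Cre recombinase driven by the adiponectin promoter, which removes *Mboat7* in adipocytes and leaves it in the other cells of the tissue. Each genotype was fed chow or a high-fat diet (HFD, D12492) for 20 weeks and fasted for 4 h before collection, with 4 mice in each of the 4 groups. The ages of the mice were not used here. Levels are FPKM, the fragments assigned to a gene per kilobase of its transcripts, scaled to the library, so levels of different genes in a mouse can be set side by side. Which scaling between libraries was used is not given in the sources used here.

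Adipsin is made and secreted in quantity by mouse white adipocytes, and its gene was found as one switched on during fat cell differentiation. In the alternative pathway of complement it cuts factor B that is bound to C3b, which completes the C3 convertase and amplifies the cleavage of C3 and then C5. The small fragments C3a and C5a act through receptors on myeloid and other cells. Low adipsin mRNA in the fat of obese rodents is long known, and for this reason adipsin is also used as a readout of adipocyte state and of nuclear receptor PPARG activity.

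*Cfd* lies on chromosome 10 of mm10, at chr10:79890853-79892655 on the plus strand, and has 5 exons in each of 2 annotated transcripts. No exon of another gene overlaps its exons. Both transcripts, of 922 and 871 bases, contribute to the single level given per mouse, and they differ at the end of exon 5 (79892655 in Cfd-201 and 79892607 in Cfd-202) and at the start of exon 2, where Cfd-201 keeps 3 bases that Cfd-202 lacks. The coding sequence around this junction of exons 1 and 2 is shown because the level does not separate the isoforms, with the 3 extra bases in capitals (GENCODE M21, 5′ to 3′):
Cfd-201: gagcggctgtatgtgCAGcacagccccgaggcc
Cfd-202: gagcggctgtatgtgcacagccccgaggcc

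The 250 bases upstream of the RefSeq start of *Cfd*, at chr10:79890603-79890852 on the plus strand of GRCm38.p6, are shown because a transcript level is what was measured, with matches to the E-box CANNTG in capitals:
Cfd upstream: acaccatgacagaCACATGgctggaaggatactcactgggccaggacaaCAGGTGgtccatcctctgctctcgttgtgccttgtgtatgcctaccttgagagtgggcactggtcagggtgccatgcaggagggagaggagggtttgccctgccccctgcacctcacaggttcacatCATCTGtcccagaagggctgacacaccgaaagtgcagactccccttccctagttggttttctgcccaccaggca
This stretch has a GC content of 57.6%, against a median of 52.0% over all promoters. The 3 E-box matches begin 237, 201 and 74 bases before the start, and 66.0% of 27025 promoters of the same length hold at least 1. Searched on both strands, the letters of a CCAAT box (CCAAT, in 34.5% of promoters), a C/EBP motif (TTGCNNAA, in 9.6%), a nuclear receptor element (AGGTCA, in 13.8%), a TATA box (TATAAA, in 13.0%) and a GC box (GGGCGG, in 32.9%) are not in this window. These matches describe the letters only.

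FPKM sums ran from 606407 to 982016 per mouse and the 10 highest genes held 32.6 to 55.2% of them. *Mboat7* itself was read near the limit of detection. Chow-fed control mice had 2.42, 4.33, 0.902 and 4.99 FPKM of it and chow-fed *Mboat7* ASKO mice 0, 1.39, 0 and 2.89, and with HFD control mice had 0, 0, 2.15 and 1.61 FPKM and *Mboat7* ASKO mice 1.14, 0, 2.60 and 0. The genotypes overlapped on both diets (limma adjusted p = 0.983 on chow and 1 on HFD), so the genotypes are known here from the labels. The adipocyte gene *Fabp4* had group means of 5447 to 11440 FPKM, epididymis and testis markers (0 of 5) were not listed, and skeletal muscle was represented by 1 of 4 markers. The neutrophil markers *S100a8* and *S100a9* and the lymphocyte marker *Cd4* were at 0 in at least 12 mice. The B cell marker *Cd79a* was the tested lymphocyte marker, with 5.29, 0, 2.95 and 2.03 FPKM in *Mboat7* ASKO mice on HFD and at most 1.84 FPKM elsewhere, and it did not pass by diet (log2 fold change 0.38 in control mice, and 1.21 with adjusted p = 0.283 in *Mboat7* ASKO mice).

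*Cfd* was one of the most abundant transcripts of chow-fed fat and far lower after HFD. Mice are numbered 0 to 3 within a group in the labels, and values are given in that order. In control mice on chow it measured 864, 2595, 941 and 1468 FPKM, and in control mice on HFD 30.8, 26.6, 19.2 and 33.9 FPKM. Values in *Mboat7* ASKO mice were 1022, 1129, 1680 and 1989 FPKM on chow and 21.3, 32.6, 18.6 and 13.2 FPKM on HFD. Every chow-fed mouse was above every HFD-fed mouse. The lowest chow value was 25.5 times the highest HFD value in control mice and 31.4 times in *Mboat7* ASKO mice.

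**Figure D1:**
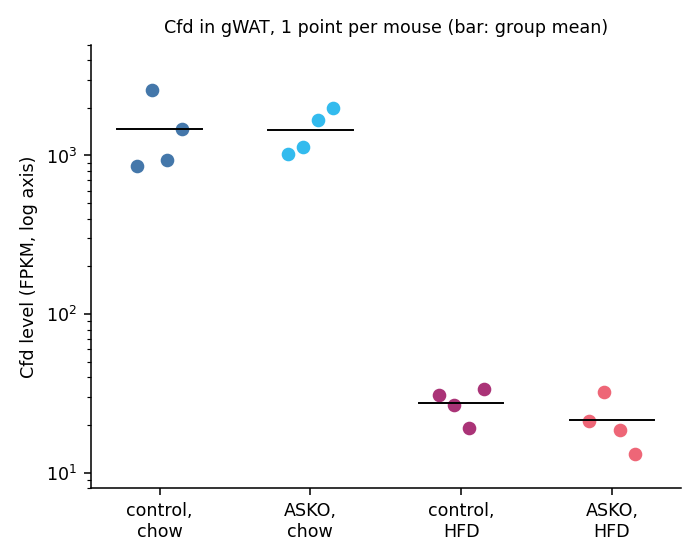
*Cfd* level in FPKM on a log axis in the 4 groups, with 1 point per mouse and a bar at the group mean. The 8 chow-fed mice sit between 864 and 2595 FPKM and the 8 HFD-fed mice between 13.2 and 33.9 FPKM, while the genotypes overlap on each diet.

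Group means were 1467 ± 798.5 FPKM (SD, n = 4) for control mice on chow, 1455 ± 458.2 for *Mboat7* ASKO mice on chow, 27.6 ± 6.33 for control mice on HFD and 21.4 ± 8.16 for *Mboat7* ASKO mice on HFD. The control mean was 98.1% lower on HFD than on chow and the *Mboat7* ASKO mean 98.5% lower. On the log2(FPKM + 1) scale, on which all fold changes here are given, the diet change was -5.56 ± 0.36 (SE) for the controls and -6.04 ± 0.36 for the *Mboat7* ASKO genotype. The diet change in *Mboat7* ASKO mice minus that in control mice was -0.47, which is given without a test because both diet changes chose the gene. RNA of whole tissue does not separate fewer adipocytes from less *Cfd* mRNA in each.

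Ranked by FPKM within a mouse, *Cfd* stood between position 30 and 84 on chow and between 1631 and 3241 on HFD. Its share of the FPKM sum was 0.136 to 0.336% on chow and 0.00155 to 0.0050% on HFD. Among chow-fed control mice the one labelled 1 had the highest *Cfd* value and also the highest FPKM sum (772406, against 611890 to 636209 in the other 3). Among HFD-fed *Mboat7* ASKO mice the one labelled 3 had the lowest *Cfd* value and the largest share of FPKM in its 10 highest genes (54.2%, against 38.7 to 39.2%). The part of these library properties in the *Cfd* values was not tested, and the diet change of *Cfd* stayed between -5.77 and -5.24 in control mice and between -6.25 and -5.83 in *Mboat7* ASKO mice under all scalings, filters, fits and left-out mice that were run.

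The deposited values carry no counts. If low values step in multiples of what 1 fragment would give, the best-fitting steps put the libraries at an estimated 230000 to 426000 fragments per mouse. The steps were searched within a set range and fitted loosely in some libraries. In chow-fed *Mboat7* ASKO mouse 1 as few as 47.9% of low values lay near a multiple. On that estimate 183 to 723 fragments per mouse stand behind *Cfd* on chow and 3.7 to 11.6 on HFD, so the HFD level in a single mouse rests on few fragments and small differences between HFD-fed mice are not resolved.

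Genotype was then compared within each diet, which asks whether loss of *Mboat7* in adipocytes goes with another level of adipsin mRNA. On chow, *Cfd* in *Mboat7* ASKO relative to control mice had a log2 fold change of 0.08 ± 0.36 (SE; 95% interval -0.68 to 0.84; limma adjusted p = 1). The two-sided exact permutation test of 4 mice against 4 gave p = 0.857, and the interval spans ratios from 0.623 to 1.79. On HFD the log2 fold change was -0.39 ± 0.36 (95% interval -1.16 to 0.37; limma adjusted p = 0.993). The exact permutation test gave p = 0.286, and the interval spans ratios from 0.449 to 1.29. A difference between genotypes was not detected on either diet. The direction on chow turned to -0.15 with quantile normalization, and to -0.13 without the control mouse labelled 0, -0.09 without control mouse 2, -0.01 without *Mboat7* ASKO mouse 2 and -0.09 without *Mboat7* ASKO mouse 3. Without control mouse 1 it was 0.40. Over all 13148 genes tested, 1 gene passed between genotypes on chow (0.00761%, with 631 at an unadjusted p under 0.05) and 1 on HFD (0.00761%, with 677). The gene on HFD was *Cdk20*, named after its values were seen.

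*Cfd* was next set against the other genes of the adipocyte in the same mouse. The mean log2 level of 10 adipocyte markers (*Adipoq*, *Plin1*, *Plin4*, *Fabp4*, *Cidec*, *Lipe*, *Pnpla2*, *Lpl*, *Cd36* and *Aqp7*) was 7.60 ± 0.13 (SD, n = 4) in control and 7.72 ± 0.17 in *Mboat7* ASKO mice on chow, and 6.92 ± 0.32 and 6.84 ± 0.06 on HFD. The marker mean thus had diet changes of -0.69 and -0.88 on the log2 scale where *Cfd* had -5.56 and -6.04.

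*Cfd* minus this marker mean was 2.31, 3.60, 2.23 and 2.94 in the control mice and 2.48, 2.21, 3.01 and 3.24 in the *Mboat7* ASKO mice on chow. On HFD it was -2.31, -2.16, -2.55 and -1.41 in control mice and -2.34, -1.81, -2.47 and -3.05 in *Mboat7* ASKO mice. Relative to the markers *Cfd* was thus above 0 in all 8 chow-fed mice and below 0 in all 8 HFD-fed mice, and the diet change on this scale was -4.88 in control and -5.15 in *Mboat7* ASKO mice, again with no test. Between genotypes the difference was -0.04 on chow (exact permutation p = 0.914) and -0.31 on HFD (exact permutation p = 0.40). With 4 mice on each side this test cannot go below 0.0286. The chow value changed sign with other marker sets and with single mice left out (from -0.22 without control mouse 0 to 0.24 without control mouse 1), and stayed short of the threshold each time.

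**Figure D2:**
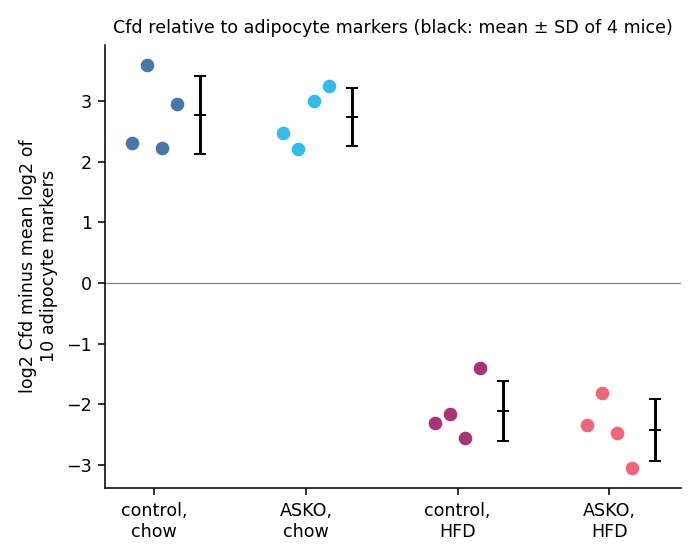
Log2 level of *Cfd* minus the mean log2 level of 10 adipocyte markers in each mouse, with the group mean ± SD in black. All 8 chow-fed mice lie above 0, between 2.21 and 3.60, and all 8 HFD-fed mice lie below 0, between -3.05 and -1.41.

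Of the 10 adipocyte markers, 1 fell on HFD in control mice and 3 fell in *Mboat7* ASKO mice, and none rose, where 1.1% and 1.3% of all tested genes fell and 1.81% and 2.13% rose. A gene passed at a limma adjusted p under 0.05 (Benjamini-Hochberg over all 13148 genes) and an absolute log2 fold change over 0.5. *Adipoq*, which encodes adiponectin and whose promoter drives the Cre transgene, measured 986.5, 1871, 1448 and 1351 FPKM in control mice on chow and 538.9, 366.5, 432 and 414 on HFD. Their *Mboat7* ASKO counterparts had 678.5, 1226, 961 and 1379 FPKM on chow and 462, 318.5, 395 and 415 on HFD. The diets did not overlap, and *Adipoq* fell by 1.67 on the log2 scale in control mice (adjusted p = 0.00117) and by 1.38 in *Mboat7* ASKO mice (adjusted p = 0.0047).

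*Plin4*, a lipid droplet coat protein gene whose exons overlap *Hdgfl2*, and *Pnpla2*, the adipose triglyceride lipase gene, passed in *Mboat7* ASKO mice, with log2 fold changes of -1.41 (adjusted p = 0.0354) and -1.54 (adjusted p = 0.0351). The *Plin4* call was lost with any 1 of the 8 mice left out (adjusted p up to 0.112), and the *Pnpla2* call with 6 of the 8 (up to 0.119, all but *Mboat7* ASKO mouse 2 on chow and 3 on HFD). Upper-quartile scaling also lost both calls (adjusted p = 0.0623 and 0.0557), and quantile normalization that of *Pnpla2* (0.0623). In all, 11 alternatives lost the *Plin4* call and 12 the *Pnpla2* call. *Fabp4*, the fatty acid binding protein of adipocytes, had log2 fold changes of -0.73 and -0.90 and did not pass in either genotype. The median change of the 10 markers was -0.53 in control and -0.91 in *Mboat7* ASKO mice, beside 0.00 and 0.03 over all tested genes.

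Of 13 other adipocyte genes, 2 fell and 1 rose in control mice, and 4 fell and 1 rose in *Mboat7* ASKO mice. Of all tested genes 1.1% fell and 1.81% rose in control mice, and 1.3% fell and 2.13% rose in *Mboat7* ASKO mice. *Retn*, which encodes the adipokine resistin, measured 97.8, 262.5, 124 and 194 FPKM in control mice on chow and 73.6, 23.9, 23.5 and 4.98 on HFD. The *Mboat7* ASKO mice had 203, 316, 221 and 217 FPKM on chow and 41.9, 22.4, 30.2 and 21.6 on HFD. *Retn* fell by 2.80 (adjusted p = 0.00811) and 3.03 (adjusted p = 0.00398) on the log2 scale, with no overlap between diets, and its call in control mice was lost when only those 2 groups entered the fit (adjusted p = 0.076).

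*Pck1*, the phosphoenolpyruvate carboxykinase of glyceroneogenesis, measured 352, 394, 412.5 and 342 FPKM in control mice on chow and 26.9, 44.5, 46.2 and 27.7 on HFD. It fell by 3.37 in control mice (adjusted p = 6.6e-06) and by 2.50 in *Mboat7* ASKO mice (adjusted p = 0.000124). *Lep*, the leptin gene, moved the other way, from a mean of 154 FPKM on chow to 616 on HFD in control mice and from 148 to 427 in *Mboat7* ASKO mice (log2 fold changes 1.98 and 1.59, adjusted p = 0.00222 and 0.0111). The *Lep* call in *Mboat7* ASKO mice was lost when only those 2 groups entered the fit (adjusted p = 0.0599). Thus the adipocyte-secreted factors *Adipoq* and *Retn* fell and *Lep* rose. *Rbp4* (-1.31 and -0.83, adjusted p = 0.0639 and 0.275) and *Rarres2* (0.11 and -0.51, adjusted p = 0.942 and 0.532) did not pass. None of these had a fold change as large as that of *Cfd*, which was selected on its diet fall. *Lgals12* and *Cebpa* passed in *Mboat7* ASKO mice by narrow margins (log2 fold changes -2.00 and -1.13, adjusted p = 0.0314 and 0.0484). In control mice *Lgals12* had nearly the same value, -1.88 (adjusted p = 0.0501), with no overlap between diets. The *Lgals12* call was lost with 5 of 8 mice left out (*Mboat7* ASKO mice 0, 2 and 3 on chow and 1 and 2 on HFD, adjusted p up to 0.0974), and the *Cebpa* call with 7 of 8, all but chow mouse 2 (up to 0.137). Upper-quartile scaling also lost both calls (adjusted p = 0.0525 and 0.0933), and quantile normalization that of *Cebpa* (0.0992). In all, 7 alternatives lost the *Lgals12* call and 13 the *Cebpa* call. The difference between genotypes in the diet change was not tested for these genes.

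**Figure D3:**
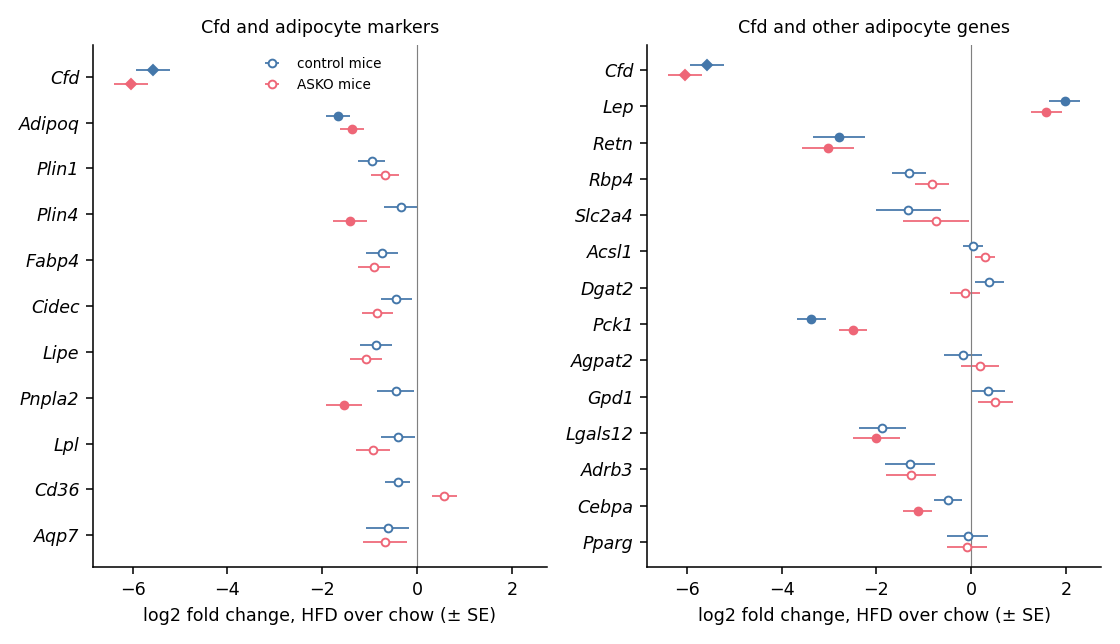
Log2 fold change of HFD over chow with its SE for *Cfd* (diamonds, no test) and for 10 adipocyte markers and 13 other adipocyte genes, in control mice (blue) and *Mboat7* ASKO mice (red), with filled circles for genes that passed. *Cfd* lies at -5.56 and -6.04, and the next lowest are *Pck1* at -3.37 and -2.50 and *Retn* at -2.80 and -3.03.

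Transcription factors and cofactors of adipocytes were listed next. Of 15 such genes 13 were tested, 0 passed in control mice, and 1, *Cebpa*, passed in *Mboat7* ASKO mice, which is near the share of all tested genes (2.91% and 3.43%). Their values lay below 0 for 10 of 13 genes in control mice (median -0.49) and for 12 of 13 in *Mboat7* ASKO mice (median -0.60). *Pparg*, the master regulator of fat cell differentiation, measured 17.1, 56.9, 19.5 and 57.1 FPKM in control mice on chow and 27.9, 31.2, 34.8 and 29.6 on HFD. Values in *Mboat7* ASKO mice were 12.2, 26.6, 23.2 and 28.1 FPKM on chow and 29.2, 12.6, 28.3 and 15.7 on HFD. The diets overlapped in both genotypes, with log2 fold changes of -0.07 ± 0.43 (SE) and -0.09 ± 0.43 (adjusted p = 0.981 and 0.961). *Cebpa*, which encodes C/EBP alpha and whose exons overlap *Gm45091*, had a log2 fold change of -0.49 in control mice (adjusted p = 0.516). Of 16 genes known as targets of PPARG that respond to its phosphorylation by CDK5, a group to which adipsin is usually counted, 15 were tested, 2 fell in control mice, 3 fell in *Mboat7* ASKO mice, and none rose in either, where 1.1% and 1.3% of all tested genes fell. *Adipoq* and *Car3* (carbonic anhydrase 3, log2 fold changes -2.00 and -2.08, adjusted p = 0.000474 and 0.000275) passed in both genotypes. *Nr1d1*, a clock repressor whose exons overlap *Thra*, passed in *Mboat7* ASKO mice at -1.39 (adjusted p = 0.0254), a call lost with 7 of 8 mice left out, all but chow mouse 2 (adjusted p up to 0.0845).

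The substrate and partners of factor D in the alternative pathway were then examined. Of the 3 genes, *C3*, *Cfb* and *Cfp*, 0 passed in either diet comparison or in either genotype comparison. Among so few genes this is near the share of all tested genes (2.91% and 3.43% by diet, 0.00761% by genotype on each diet). *C3*, whose product is split by the convertase that factor D completes, measured 42.8, 29.1, 27.0 and 35.3 FPKM in control mice on chow and 47.5, 71.8, 63.5 and 65.1 on HFD. Their *Mboat7* ASKO counterparts had 59.5, 45.5, 28.8 and 36.6 FPKM on chow and 51.0, 72.3, 68.2 and 55.3 on HFD. The diets did not overlap in control mice and overlapped in *Mboat7* ASKO mice, and the log2 fold changes were 0.87 ± 0.28 (adjusted p = 0.119) and 0.56 ± 0.28 (adjusted p = 0.361).

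*Cfb*, which encodes factor B, the substrate of factor D, and whose exons overlap the readthrough gene *Gm20547*, measured 42.8, 35.5, 36.7 and 34.8 FPKM in control mice on chow and 42.9, 44.5, 41.6 and 52.0 on HFD. The *Mboat7* ASKO mice had 25.7, 34.2, 25.6 and 34.0 FPKM on chow and 42.2, 65.6, 18.3 and 42.0 on HFD. The diets overlapped in both genotypes (log2 fold changes 0.27 and 0.36, adjusted p = 0.799 and 0.678). *Cfp*, the gene of the stabilizing protein properdin, had log2 fold changes of 0.16 and -0.75 (adjusted p = 0.965 and 0.648). On chow *Cfd* was therefore far above *C3* and *Cfb* in FPKM in every mouse, and on HFD it was below *C3* in every mouse.

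Over the whole complement list, 40 of 42 genes were listed and 34 tested. In control mice 5 rose and 1 fell on HFD (6 of 34, where 2.91% of all tested genes passed), and in *Mboat7* ASKO mice 8 rose and 0 fell (8 of 34, where 3.43% passed). The median change of the 34 genes was 0.18 and 0.26, beside 0.00 and 0.03 over all tested genes. Without control chow mouse 3 the count passing by diet in control mice was 3. None of the 34 passed between genotypes on either diet, where 0.00761% of all tested genes passed on each. On HFD the genotypes did not overlap for *Itgax*, *C3ar1* and *C1qb*, all higher in *Mboat7* ASKO mice and named after their values were seen. How many of all tested genes lacked overlap was not counted, so this is a description only. *Itgax* measured 8.51 to 26.3 FPKM in control and 34.6 to 47.4 in *Mboat7* ASKO mice (log2 fold change 1.34, limma adjusted p = 0.824). The others were *C3ar1* (1.03, adjusted p = 0.901) and *C1qb* (0.65, adjusted p = 0.985). On chow the genotypes did not overlap for *Cfb* (-0.33). The paper reports raised *Itgax* mRNA in HFD-fed *Mboat7* ASKO mice. Its statement rests on these same libraries and on Cufflinks rather than limma, so it is not a separate observation.

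The complement genes that rose were receptors and C1q chains. *C3ar1*, the receptor of C3a, measured 2.52, 1.37, 0.615 and 3.78 FPKM in control mice on chow and 10.9, 10.7, 15.8 and 17.9 on HFD. Values in *Mboat7* ASKO mice were 1.07, 1.20, 0.616 and 1.99 FPKM on chow and 24.0, 32.2, 31.0 and 27.8 on HFD. The diets did not overlap, and the log2 fold changes were 2.36 (adjusted p = 0.00251) and 3.77 (adjusted p = 4.14e-05).

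*Itgax* and *Itgb2*, the chains of complement receptor CR4, rose in both genotypes, by 3.80 and 3.22 in control mice (adjusted p = 5.84e-05 and 0.0121) and by 5.14 and 3.67 in *Mboat7* ASKO mice (adjusted p = 1.41e-06 and 0.00437). *C5ar1*, the C5a receptor, and *Itgam*, another partner of *Itgb2*, passed in *Mboat7* ASKO mice (2.68 and 1.92, adjusted p = 0.0139 and 0.0181), while their values in control mice were 1.60 and 1.26 (adjusted p = 0.178 and 0.152). The *Itgam* call, in a gene whose exons overlap *Gm49368*, was lost without *Mboat7* ASKO mouse 3 on chow or mice 1 or 2 on HFD (adjusted p up to 0.0707). With a pseudocount of 0.1 the *Itgb2* call in control mice and the *C5ar1* call were lost (adjusted p = 0.0846 and 0.0987), and with only the 2 groups in the fit the *Itgb2* call in control mice and the *Itgam* call (0.0562 and 0.081).

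The C1q chains start the classical pathway rather than the alternative one. *C1qb* and *C1qc* rose by 1.94 and 1.93 in control mice (adjusted p = 0.0241 and 0.017) and by 3.07 and 2.90 in *Mboat7* ASKO mice (adjusted p = 0.000708 and 0.000692). *C1qa* passed in *Mboat7* ASKO mice at 1.74 (adjusted p = 0.0161) and had a value of 0.96 in control mice (adjusted p = 0.232). In control mice the *C1qb* call was lost without chow mouse 2 or 3 or HFD mouse 2 or 3 (adjusted p up to 0.0784) and the *C1qc* call without chow mouse 2 or 3 or HFD mouse 1 (up to 0.066). The *C1qa* call in *Mboat7* ASKO mice was lost without HFD mouse 0 or 1 (up to 0.0584).

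Markers of macrophages, cells that express these receptors and C1q, moved with them. Of 8 macrophage markers 5 rose in each genotype (where 1.81% and 2.13% of all tested genes rose), none fell, and their summed level was 171 to 197 FPKM in the chow-fed mice and 454 to 888 FPKM in the HFD-fed mice. *Lyz2* and *Mpeg1* rose in both genotypes (1.65 and 3.46 in control mice, then 2.24 and 3.73 in *Mboat7* ASKO mice), and *Csf1r* had values of 0.41 and -0.43 and did not pass. In control mice the *Cd68* call was lost with 6 of 8 mice left out, all but chow mouse 2 and HFD mouse 0 (adjusted p up to 0.108), and the *Adgre1* call without chow mouse 2 or HFD mouse 1 or 3 (up to 0.0648). The *Mrc1* call in *Mboat7* ASKO mice was lost with 6 of 8, all but chow mouse 2 and HFD mouse 3 (up to 0.0983). A pseudocount of 0.1 lost the *Cd68* call in control mice (adjusted p = 0.263). It also lost the *Adgre1* call in control and *Mboat7* ASKO mice (0.0545 and 0.0749). The part of macrophage content in the complement receptor and C1q values was not tested.

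*C2* was the complement gene that fell. It encodes the classical pathway counterpart of factor B, lies next to *Cfb*, and its exons overlap *Gm20547* and *Zbtb12*. *C2* measured 10.9, 34.3, 17.3 and 20.2 FPKM in control mice on chow and 9.62, 0, 0 and 1.39 on HFD. Their *Mboat7* ASKO counterparts had 5.56, 11.5, 11.2 and 11.8 FPKM on chow and 1.08, 3.58, 0 and 0 on HFD. The diets did not overlap in either genotype. The log2 fold change was -3.16 in control mice (adjusted p = 0.0185) and -2.60 in *Mboat7* ASKO mice (adjusted p = 0.0521), the latter short of the threshold. The call in control mice was lost without chow mouse 1 or 3 or HFD mouse 1 or 2 (adjusted p 0.0507 to 0.0712), with a pseudocount of 0.1 (0.0775) and with only the 2 groups in the fit (0.0791).

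The remaining parts of the cascade gave no calls by diet. Among so few genes this is near the share of all tested genes (2.91% in control and 3.43% in *Mboat7* ASKO mice). Of the terminal pathway genes, whose products form the membrane attack complex, 5 of 7 were tested and 0 passed, with *C6* at log2 fold changes of -1.58 and -1.08 (adjusted p = 0.101 and 0.298). Of the regulators, 9 of 11 were tested and 0 passed. *Serping1*, the C1 inhibitor gene, had log2 fold changes of 0.30 and 1.04 (adjusted p = 0.815 and 0.196).

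**Figure D4:**
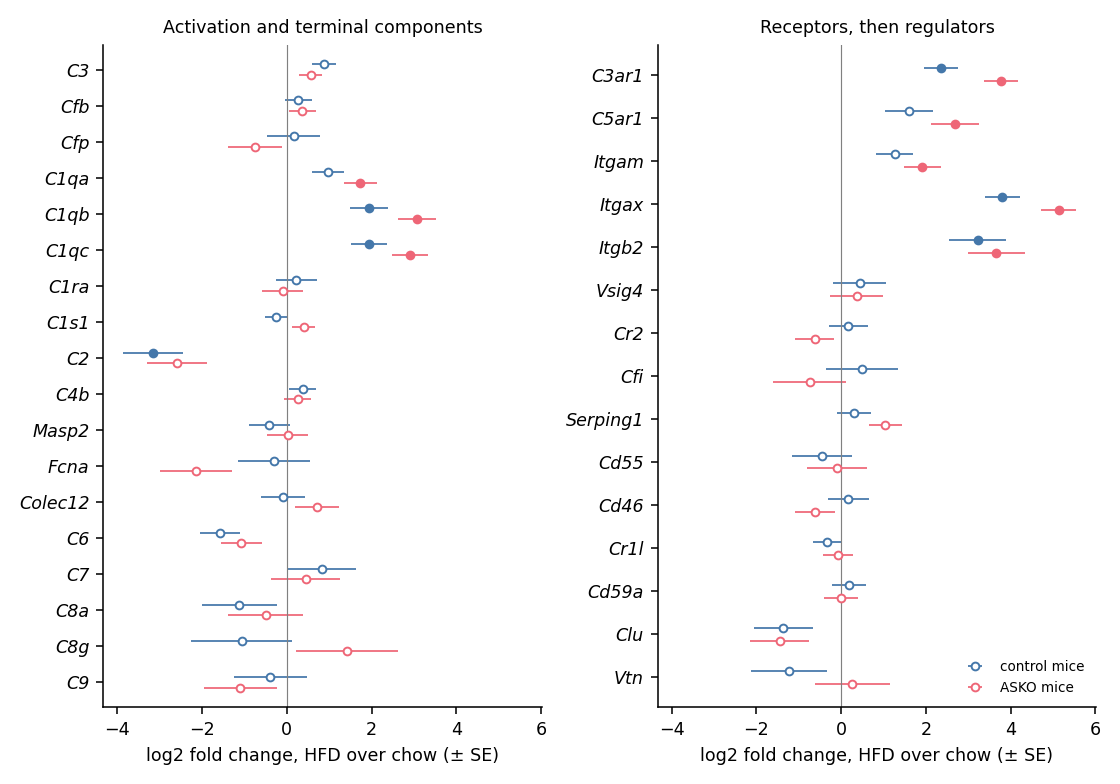
Log2 fold change of HFD over chow with its SE for tested complement genes in control mice (blue) and *Mboat7* ASKO mice (red), with filled circles for genes that passed. The alternative pathway genes *C3*, *Cfb* and *Cfp* lie between -0.75 and 0.87, whereas *Itgax*, *Itgb2* and *C3ar1* lie between 2.36 and 5.14.

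In the order of all tested genes by diet fold change *Cfd* was the second lowest in each genotype. In control mice the one below it was *Gm23134* (-7.69) and those just above it were *Gm38244* (-4.86), *Golgb1* (-4.82) and *Cyp2e1* (-4.46). In *Mboat7* ASKO mice *Gm23134* (-8.64) was again below it, with *Gm38033* (-5.80), *Gm25767* (-5.00) and *Golgb1* (-4.88) just above. *Gm23134* is annotated as a microRNA gene inside *Nnat* exons, and its values ran from 0 to 53230 FPKM. *Cfd* was therefore the protein-coding gene with the lowest diet fold change among those tested, in both genotypes, on the log2(FPKM + 1) scale. It was selected on these diet values, so its place is a description. A pseudocount of 1 understates changes of low genes, and the order was not drawn with another. *Golgb1* had 1.36, 0, 12.4 and 1.42 FPKM on HFD in control mice and 1.10, 0, 18.6 and 1.15 in *Mboat7* ASKO mice.

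The genes most like *Cfd* over the 16 mice, by Pearson's r of log2 levels among 3919 genes with a mean of at least 10 FPKM, were *Necab1* (0.96), *Sumf2*, *Cept1*, *Gsn*, *Cul5*, *Ces1d*, *Mtmr11*, *Cyp2e1*, *Car3* and *Eepd1* (0.93). Spearman's rho for these 10 ran from 0.73 to 0.92. The 16 points share 2 diets, and the likeness mostly restates a diet difference. *Cyp2e1*, a cytochrome P450 gene, measured 475, 1178, 454.5 and 620 FPKM in control mice on chow and 27.7, 47.7, 9.20 and 46.4 on HFD, and the chow mouse with the highest *Cfd* again had the highest value. *Gsn*, the gene of the actin-severing protein gelsolin, measured 460, 522, 358 and 545 FPKM and 218, 264, 198 and 246 in the same mice. In *Mboat7* ASKO mice *Cyp2e1* measured 697.5, 665.5, 697 and 569 FPKM on chow and 34.0, 106, 36.1 and 78.1 on HFD. There the chow mouse labelled 3 had the highest *Cfd* and the lowest *Cyp2e1* of its group.

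**Figure D5:**
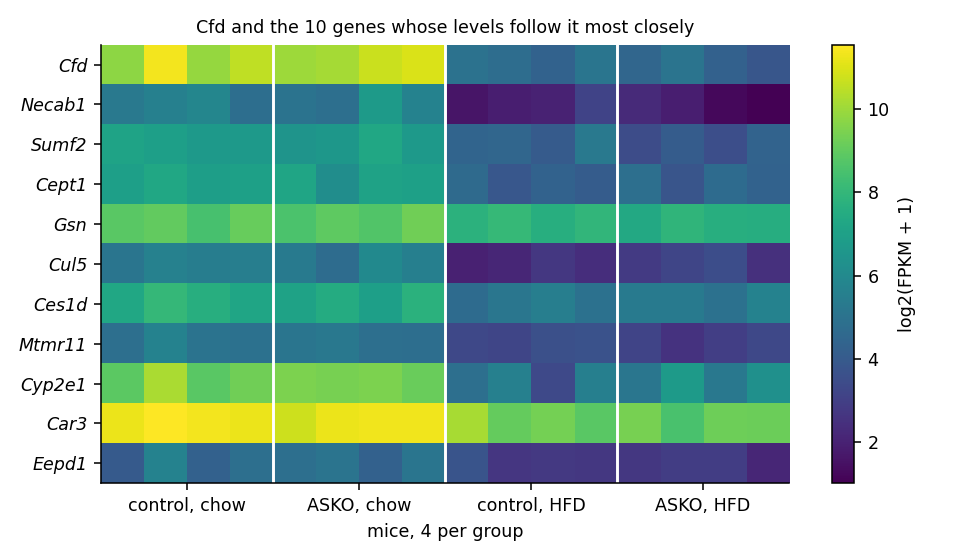
Log2(FPKM + 1) of *Cfd* and of the 10 genes with the highest Pearson's r to it, with 1 column per mouse and 4 mice per group. Each row is higher in the 8 chow-fed mice than in the 8 HFD-fed mice, and *Cfd* spans the widest range, from 3.83 to 11.3.

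Once each group's mean was removed, another set of genes had the highest r with *Cfd*. These were *Ftl1* (r = 0.84), *Brk1*, *Ptpn2*, *Gm9134*, *Pygl*, *Cdc34*, *Atp5h*, *Vps25*, *Snhg8* and *Bcl2a1b* (0.76). The 10 highest by one measure and the 10 highest by the other had no gene in common. *Pygl*, the liver-type glycogen phosphorylase gene, had means of 25.2 and 17.4 FPKM on chow and 6.74 and 6.24 on HFD. These values come from libraries that also differ in estimated depth, and they describe likeness only. The correlations are the highest among 3919 genes, with no chance level set. They include HFD-fed mice, whose small differences in *Cfd* are not resolved.

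The chromosomal neighbours of *Cfd* were also read. Within 100 kb on either side lie 16 other genes of the table, 12 of them tested, of which 0 passed in control mice and 1 passed in *Mboat7* ASKO mice, close to the 2.91% and 3.43% of all tested genes. That gene, *Prss57*, a serine protease gene whose exons overlap *Fstl3*, fell by 1.03 on the log2 scale in *Mboat7* ASKO mice (adjusted p = 0.0229) and had a value of 0.06 in control mice (adjusted p = 0.965). *Med16*, the nearest tested gene downstream, at chr10:79894708-79908923, had means of 1.90 and 3.23 FPKM on chow and 0.865 and 0.947 on HFD and did not pass (log2 fold changes -0.62 and -0.48). *Prtn3*, another serine protease gene, which lies on the upstream side of *Cfd*, was at a group mean of 0 in 3 of the 4 groups.

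Of the other cell types, 4 of 5 endothelial and 5 of 5 progenitor and fibroblast markers were tested and 0 passed in either diet comparison. Among so few genes this is near the share of all tested genes (2.91% in control and 3.43% in *Mboat7* ASKO mice). The 5 mesothelial markers had a summed level of 14.3 to 31.9 FPKM in chow-fed mice and 0 to 10.9 FPKM in HFD-fed mice. Of the 5, 1 passed in control mice, *Lrrn4* (-1.48, adjusted p = 0.0344), where 2.91% of all tested genes passed. Its call was lost with 7 of 8 mice left out, all but chow mouse 2 (adjusted p up to 0.113). The part of mesothelial cells in the *Cfd* values was not tested. The brown adipocyte markers *Ucp1* and *Cox7a1* were at 0 in at least 12 mice, while the third, *Cidea*, reached at most 5.04 FPKM and did not pass by diet (log2 fold changes 0.86 and 0.06, adjusted p = 0.708 and 0.989).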

How the data were processed

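Directional mRNA libraries of gWAT from 16 male mice were sequenced. Reads were trimmed with TrimGalore, mapped to mm10 by STAR with GENCODE gene models, and turned into gene-level FPKM by Cufflinks, all by the authors, who deposited the FPKM of each mouse as a column. The GENCODE release, the library normalization and whether counting used strand are not given in the sources used here. FPKM holds no counts, so depth was estimated from the steps between low values in 1475 genes of 1 transcript. The best-fitting step of each mouse within a set range was taken, and 47.9 to 79.0% of low values lay within 0.2 of a whole multiple. An even spread would give 40% at a step fixed in advance, so these percentages do not test the chosen steps.

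Gene identifiers were matched to GENCODE M21 (99.6% found). A spreadsheet had changed 22 gene names to numbers, which were replaced from the reference. Where a symbol stood on several rows (20 cases), that of highest mean kept the plain symbol. The other rows stayed in the data with their identifier added to the name. A gene entered the tests if 4 or more mice reached 1 FPKM (13148 genes), as log2(FPKM + 1), which understates changes of low genes. Groups were compared with limma 3.58.1 in R 4.3.3, all 4 groups in one fit, with an intensity trend, with Benjamini-Hochberg adjustment over all genes of a contrast. The p-values measure the spread between mice. Single values per mouse were compared by two-sided exact permutation over 70 splits. The limma script was tested on simulated data. Alternatives were another pseudocount, filter, scaling and fit, the replicate number as a block, and each mouse left out. Software for tables and plots was Python 3.11.15 (matplotlib 3.10.9, numpy 2.4.6, pandas 2.3.3).

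Genes named were *Cfd*, the complement, adipocyte, transcription, PPARG target and cell type marker lists, genes within 100 kb, the 10 genes most like *Cfd* by each measure, and up to 3 genes on either side of it in the order of diet fold change. Some genes of these lists are not reported here by name. These members and lists were chosen with earlier results of these data known.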

Additional observations from a re-analysis of the deposited data

Results flagged for a closer look

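A mouse was looked at again where it stood apart from the other 3 of its group by Dixon's 95% criterion for the gap to the nearest mouse over the group's range. Over 64 groups of 4 mice, 7 met it, and chance flags about 1 in 20, or about 3. *Cfd* itself and *Cfd* relative to adipocyte markers gave none.

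Control mouse 1 on chow had an FPKM sum of 772406 (611890 to 636209 in the others) and held 41.95% of it in 10 genes (35.4 to 35.8%). *Mboat7* ASKO mouse 3 on HFD held 54.2% of its FPKM in 10 genes (38.7 to 39.2%). Chow-fed *Mboat7* ASKO mouse 1 had 316 FPKM of *Retn* (203 to 221 in the others). Chow-fed *Mboat7* ASKO mouse 0 had 1733 FPKM of *Car3* (2434 to 2556). *C2* was at 9.62 FPKM in control mouse 0 on HFD (0 to 1.39) and at 5.56 FPKM in chow-fed *Mboat7* ASKO mouse 0 (11.2 to 11.8). No cause was tested for these values.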

How the results depend on the processing

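The genotype values of *Cfd* stayed short of the threshold under all alternatives run: another pseudocount, filters, scalings, fits and single mice left out. On HFD the direction was kept (-0.61 to -0.20 with a mouse left out). On chow it turned with quantile normalization (-0.15) and ran from -0.13 to 0.40 with a mouse left out. *Cfd* minus adipocyte markers on chow turned to 0.17 with only *Adipoq*, *Plin1* and *Fabp4* and to 0.014 with the other adipocyte genes added (-0.22 to 0.24 with a mouse left out), and on HFD ran from -0.51 to -0.08. Genes passing by diet numbered 255 in control and 265 in *Mboat7* ASKO mice when the fit held just the pair compared, and 255 to 333 and 265 to 378 with a mouse left out (255 without control chow mouse 1, 265 without *Mboat7* ASKO HFD mouse 0). Complement genes passing were 3 to 6 in control mice with a mouse left out. Genes passing by genotype on chow were 2 with no filter and 0 with a filter of 5 FPKM, upper-quartile scaling, robust estimation or the replicate block (0 to 1 with a mouse left out). On HFD they were 2 with no filter and 0 with a filter of 5 FPKM, quantile normalization, only 2 groups or the replicate block (0 to 3 with a mouse left out). Of 40 calls of list genes by diet, 573 of 678 alternative values kept the call, 105 lost it and 0 turned. Upper-quartile scaling moved the median of all genes in the *Mboat7* ASKO diet comparison to 0.11. These causes were not tested.

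Deviations of mice with the same label number correlated weakly (-0.052 to 0.152, highest between genotypes for the chow mice labelled 0). The main fits used no pairing, though weak correlations do not exclude one. With the replicate block 361 genes passed by diet in control and 390 in *Mboat7* ASKO mice, the genotype change of *Cfd* was 0.08 on chow and -0.39 on HFD, and *Cfd* minus adipocyte markers -0.04 and -0.31. Depth is unknown beyond an estimate, and limits the HFD values of *Cfd* most.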
